A study of Mus musculus with 2 samples.

Results

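The cells described here are the macrophages of Cell_culture, a single-cell transcriptome of dorsal root ganglia (DRGs) kept in culture. They are 84 of 10730 cells, 38 in library A and 46 in library B. A cell was selected on its own transcripts: its UMIs (molecular barcodes, so that copies of a transcript made by PCR count once) of Lyz2, C1qa and C1qb had to reach 30 per 10000 UMIs of the cell, while the neuronal genes Tubb3, Snap25, Uchl1, Prph and Stmn2 and the fibroblast genes Dcn, Lum and Mgp each had to sum to under 20. Barcodes with fewer than 200 genes or more than 10% of their UMIs from mitochondrial genes were left out first.

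The DRGs came from 2-week-old SWISS mice, male and female by the study's methods, from cervical, thoracic and lumbar levels. The ganglia were uninjured, were digested with collagenase IV and dispase, and their cells grew for 3 days on laminin in medium with horse serum before trypsin detached them and the 10x Chromium 3' kit captured them. A and B are 2 libraries of this 1 condition, run on the same chip, and the sources do not state if separate mice or cultures were used for each. All comparisons are therefore between cell classes of the same libraries, and the p-values measure only the spread between these libraries, which may be technical.

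Macrophages are phagocytes that live in most tissues, where they engulf dying cells and debris and break them down in lysosomes. They depend on the receptor encoded by Csf1r, whose ligands are CSF1 and IL-34, and on the transcription factor PU.1, encoded by Spi1. In the DRG they lie close to the cell bodies of sensory neurons, among the satellite glial cells that wrap them, and they are known to become more numerous after a nerve is injured. Lyz2 encodes the bactericidal enzyme lysozyme, and C1qa, C1qb and C1qc encode the 3 chains of C1q, which starts the classical complement cascade.

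The selected cells made up 0.750% of the cells in A (exact 95% binomial interval 0.531 to 1.03) and 0.812% in B (0.595 to 1.08), a mean of 0.781% ± 0.0439 (SD, n = 2 libraries). With a mitochondrial limit of 5%, which 2047 cells pass, the shares were 3.28% in A and 3.00% in B, far outside these intervals, which cover counting error only. The 2 libraries share 8 cell barcodes, none of which is a macrophage. The macrophages hold 401306 UMIs in A and 434302 in B, of 40355401 and 38945848 in all barcodes. A median macrophage had 8492 UMIs over 2534 genes in A and 8569 over 2436 in B. For comparison, the other cells fall into 3 classes: 816 cells over the neuronal limit, 392 over the fibroblast limit and 9438 remaining cells, whose median depth was 4726 UMIs.

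Of the macrophages 4, 2 in each library, had fewer than 1000 genes: 640 to 897 UMIs, 0.111 to 0.766% of them mitochondrial, and 1159 to 2000 per 10000 from the genes of the iron list. The other 80 had at least 2922 UMIs, at least 1.51% mitochondrial and at most 1231 per 10000 from iron genes. The selection left few cells near its edge. The lowest sums of Lyz2, C1qa and C1qb among the macrophages were 30.6, 47.4 and 62.6 per 10000, and the highest among cells kept out by this limit were 21.9, 21.2 and 17.1. Another 5 cells passed the macrophage limit but were kept out by the neuronal limit (3 cells, all in B, at 108 to 117 per 10000 with 30775 to 33701 UMIs) or by the fibroblast limit (32.3 in A and 125 in B). These cells stay among the other cells, where Lyz2 stands at 4.16 CPM in A and 31.1 in B. CPM is the UMIs of a gene per 1000000 UMIs of the class in that library.

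By their markers the cells bear their label. The selection genes themselves stood at 12990.1 CPM in A and 14989.6 in B for Lyz2, 4889 CPM in A and 4727 in B for C1qa and 2317 CPM in A and 2349 in B for C1qb, which describes the choice and carries no test. Of the markers given for these cells, Csf1r alone was not used in the selection; it stood at 105 CPM in A and 89.8 in B against 0.511 and 0.555 in all other cells (log2 fold change 7.92 ± 0.37 (SE), adjusted p = 6.41e-05). Most markers of other blood cells had no UMI: all 8 T and NK cell genes, all 5 mast cell genes and all 6 dendritic cell genes had 0 UMIs in the macrophages, as had 4 of 5 monocyte genes (among them Ly6c2, Ccr2 and Plac8; Chil3 had 2 UMIs in A and 0 in B) and 3 of 4 B cell genes. Of 5 neutrophil genes S100a9, Ly6g and Retnlg had 0 UMIs, but S100a8 stood at 32.4 CPM in A and 69.1 in B against a mean of 0.798 in all other cells and lay in 28 of 84 macrophages, and Mmp8 stood at 4.98 and 11.5 CPM; both were higher than in each of the other classes. With 0 UMIs over both libraries, a gene may still lie at up to 3.59 CPM, the level of 3 counts. Endothelial genes summed to 2.49 and 2.30 CPM, pericyte or smooth muscle genes to 17.4 and 34.5.

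Glial RNA was the exception, and it split the macrophages into 2 ranges. The 8 glial markers, among them Sox10, Erbb3, Fabp7, Cnp, Gpm6b and Foxd3, summed to between 0 and 3.15 per 10000 in 56 cells, with 35 of them at 0, and to between 8.82 and 41.0 in the other 28, with no cell between. The remaining cells had a median of 58.6. The 28 cells (16 of 38 in A and 12 of 46 in B) had a median of 15381 UMIs in A and 14052 in B, against 7052 and 7559 in the other 56. Their median sum of Lyz2, C1qa and C1qb was 149.8 per 10000 in A and 149 in B, against 254 and 261. Over all macrophages the glial markers summed to 1577 CPM in A and 896 in B, and without the 28 cells to 79.2 and 52.8. The fibroblast list fell from 849.7 and 336 CPM to 19.8 and 15.1 in the same step. No doublet caller was run and the selection set no limit on glial genes. Results below are over all macrophages unless stated. They are also given without these 28 cells for the sterol and cell cycle genes and for some others.

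**Figure D1:**
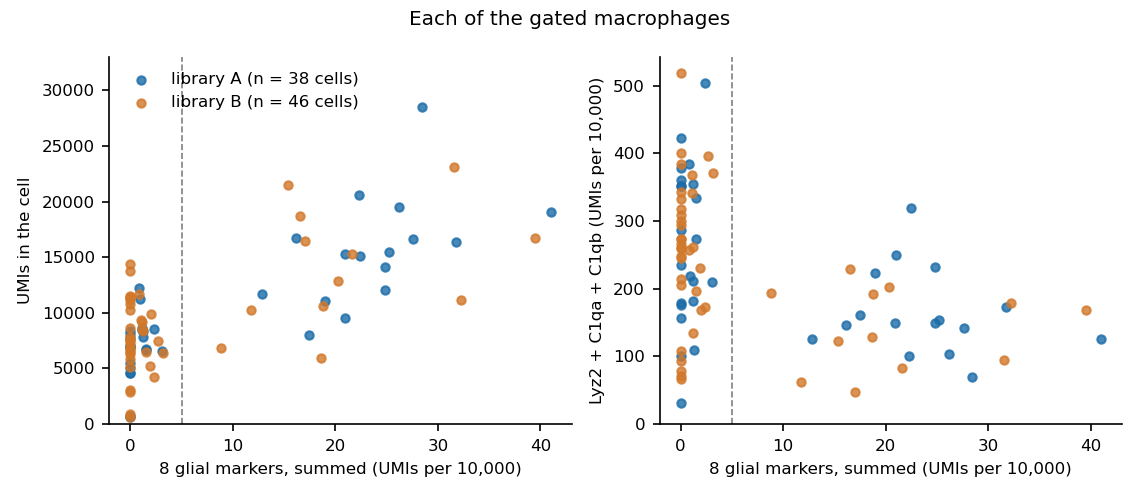
Each point is 1 of the 84 macrophages, coloured by library; the x axis is the summed level of 8 glial markers in UMIs per 10,000 of the cell, and the y axis is the cell's UMIs (left) or its sum of Lyz2, C1qa and C1qb in UMIs per 10,000 (right). The dashed line at 5 separates 56 cells at or below 3.15 from 28 cells at 8.82 or more, which hold more UMIs and a lower macrophage sum.

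To ask what else distinguishes the macrophages from their neighbours in the dish, UMIs were summed over the macrophages and over all other cells of each library and compared with edgeR's quasi-likelihood test, with the library as a block and Benjamini-Hochberg adjustment over 14129 tested genes. The 11 selection genes were left out. The filter on low counts keeps a gene that reaches its limit in 1 class alone. Genes near 0 in all other cells were thus tested because the macrophages held them. Counts of higher genes among those tested therefore describe the lists below and are no independent evidence for them. 1374 genes were higher in the macrophages (9.72% of those tested) and 1336 were lower (9.46%). Without the 28 cells with glial RNA, 1308 genes (9.31%) were higher and 2298 (16.4%) lower. Since the cells were chosen on Lyz2 and C1q, genes that go with these had to be among those higher, and the shares of all genes called are the background for every list below. The median log2 fold change of all tested genes was -0.30 with TMM scaling and -0.73 with library totals, under which 1045 genes were higher and 3463 lower. Levels in CPM are relative to library totals, fold changes to TMM. Macrophages were also set against each of the 3 other classes in turn, a comparison added after the first values were seen: 778 of 13763 genes (5.65%) were higher than in all 3, and 538 (3.91%) were lower than in all 3.

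The 10 leading genes, by fold after adding 10 CPM to both sides, were Tyrobp, Fcer1g, C1qc, Ctss, Gpnmb, Cd68, Pf4, Trem2, Bcl2a1b and Ms4a6d, all higher than in each of the other classes. Tyrobp and Fcer1g encode signalling adaptors of myeloid receptors, Ctss a lysosomal cysteine protease, and Pf4 a chemokine best known from platelets. Tyrobp stood at 2131 CPM in A and 2604 in B against 0.945 and 2.98 in all other cells (log2 fold change 10.72 ± 0.28 (SE), adjusted p = 1.17e-05). Pf4 stood at 1017 CPM in A and 1506 in B against 0.587 and 0.898 (log2 fold change 11.16 ± 0.16 (SE), adjusted p = 3.86e-06). Trem2, a lipid receptor that signals through the Tyrobp protein, stood at 1024 CPM in A and 1163 in B against 0.281 and 1.16. In the GRCm38 annotation Tyrobp lies at chr7:30413760-30417585, Pf4 at chr5:90772435-90773383 and Trem2 at chr17:48346401-48354147, while C1qb, C1qc and C1qa lie side by side at chr4:136880129-136886187, chr4:136889804-136893065 and chr4:136895917-136898803. For Tyrobp, Pf4 and Trem2 the difference was far larger than that between the libraries. Bcl2a1b and Ms4a6d have near-identical family members, as have Lyz2 and Ftl1, so their counts may be incomplete. The 10 leading genes in the other direction were Nts, Gal, Snhg11, Gng3, Stmn3, Pcsk1n, Rtn1, Sncg, Fxyd2 and Gap43, all of them highest in cells over the neuronal limit. The neuropeptide gene Nts, for instance, stood at 9.97 and 4.61 CPM in macrophages and 2753 and 2878 in cells over the neuronal limit. Snhg11, a long non-coding RNA gene of neurons, had 0 UMIs in macrophages and was, taking 3 counts over both libraries as the floor, at least 78.5-fold lower than in all other cells in CPM, with a bound of -5.87 on the log2 scale with TMM.

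PU.1 binds a purine-rich core, here searched as GAGGAAGT or its reverse complement ACTTCCTC on either strand of the RefSeq promoters (GRCm38.p6, 250 bases before to 50 after the annotated start). Of the 10 leading macrophage genes 8 have a promoter in the table, and 4 of those hold the 8 letters. Among all tested genes with a promoter there, 3.50% of 10723 hold them, and among genes called higher 7.37% of 1072. Of the 16 genes of the macrophage identity list 12 have a promoter in the table, and C1qc alone holds the letters. A match describes the letters only and is not a binding site. The 4 promoters are printed 5' to 3' on the strand of the gene with the matching letters in capitals, to show where they lie: next to the start in Ctss and Pf4 and further upstream in C1qc and Bcl2a1b.
Ctss (chr3:95526536-95526835, plus strand): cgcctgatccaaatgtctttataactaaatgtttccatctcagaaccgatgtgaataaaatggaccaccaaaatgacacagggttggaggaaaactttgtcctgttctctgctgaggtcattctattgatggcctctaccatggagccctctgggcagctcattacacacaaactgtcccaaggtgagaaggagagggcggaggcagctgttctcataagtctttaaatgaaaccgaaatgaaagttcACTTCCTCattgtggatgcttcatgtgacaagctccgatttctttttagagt
C1qc (chr4:136892865-136893164, minus strand): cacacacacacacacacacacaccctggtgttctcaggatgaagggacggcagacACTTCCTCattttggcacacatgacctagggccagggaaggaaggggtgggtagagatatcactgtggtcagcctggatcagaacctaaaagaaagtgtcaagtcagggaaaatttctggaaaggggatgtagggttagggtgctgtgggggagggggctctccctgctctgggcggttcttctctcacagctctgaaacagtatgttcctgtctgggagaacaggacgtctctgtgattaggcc
Pf4 (chr5:90772185-90772484, plus strand): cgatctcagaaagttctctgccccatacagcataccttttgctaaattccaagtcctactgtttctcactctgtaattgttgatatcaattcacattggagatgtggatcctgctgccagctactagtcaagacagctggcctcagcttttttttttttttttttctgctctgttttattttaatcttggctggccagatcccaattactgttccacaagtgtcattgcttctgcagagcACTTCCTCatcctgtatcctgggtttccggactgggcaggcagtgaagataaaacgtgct
Bcl2a1b (chr9:89199023-89199322, plus strand): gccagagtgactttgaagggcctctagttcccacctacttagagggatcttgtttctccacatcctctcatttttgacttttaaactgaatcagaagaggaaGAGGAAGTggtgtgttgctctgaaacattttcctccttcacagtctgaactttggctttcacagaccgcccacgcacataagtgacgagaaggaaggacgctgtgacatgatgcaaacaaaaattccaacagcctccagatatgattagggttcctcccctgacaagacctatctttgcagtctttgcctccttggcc

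All 16 genes of the macrophage identity list were higher in the macrophages, and higher than in each of the 3 other classes, with a median log2 fold change of 9.94 beside -0.30 over all tested genes. Adgre1, which encodes the F4/80 antigen, stood at 162 CPM in A and 168 in B against 0.102 and 0.238 in all other cells. Cx3cr1, the receptor for fractalkine, stood at 142 CPM in A and 129 in B against 0.587 and 0.792. Mertk, a receptor for dying cells, differed least, at 74.8 and 78.3 CPM against 42.6 and 40.1 in the remaining cells (log2 fold change 1.81 ± 0.20 (SE), adjusted p = 0.00241 against all other cells). Of 12 myeloid transcription factors 11 were tested and 10 were higher. Spi1 stood at 187 CPM in A and 265 in B against 0.102 and 0.449, and Irf8, another factor of the myeloid lineage, at 179 and 191 CPM against 0.664 and 1.06. Runx1 did not pass (82.2 and 53.0 CPM, adjusted p = 0.0522 by edgeR) and was highest over the neuronal limit, at 133 and 127 CPM. Cebpb and Nr1h3 were higher than in all other cells together but lower than in cells over the fibroblast limit, where they stood at 285 and 250.1 and 55.1 and 66.0 CPM.

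Of 12 genes for complement and Fc receptors 11 were tested, and all 11 were higher. Those near 0 in all other cells, such as C3ar1 and C5ar1, entered the test through the macrophages, so the count is descriptive. C3ar1 and C5ar1, the receptors for the fragments C3a and C5a, stood at 366 and 357 CPM and 135 and 161 CPM, against 0.153 and 0.317 and 0.102 and 0.158 in all other cells. The Fc receptor genes Fcgr3, Fcgr2b and Fcgr1 stood at 493 and 661 CPM, 177 and 198 CPM and 87.2 and 87.5 CPM, and Fcgr4 lower, at 19.9 and 13.8 CPM. C3 itself had 1 UMI in A and 0 in B and was not tested.

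**Figure D2:**
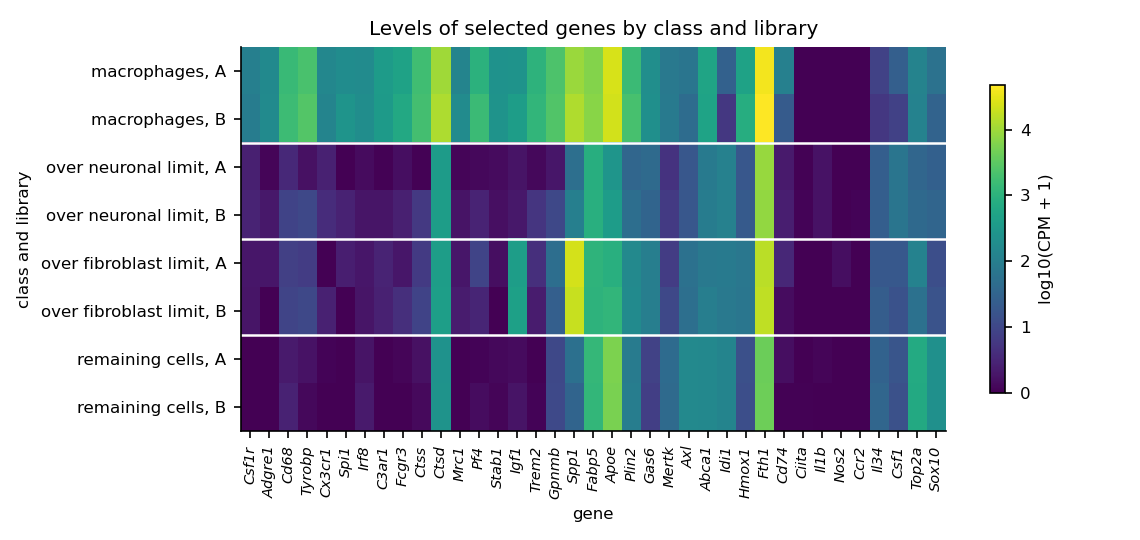
Colour gives log10(CPM + 1) of selected genes (columns) in macrophages, cells over the neuronal limit, cells over the fibroblast limit and remaining cells, with a row for each library. Csf1r to Ctss stand out in the macrophage rows, Spp1 and Igf1 are also high over the fibroblast limit, and Ciita, Il1b, Nos2 and Ccr2 are dark throughout the macrophage rows.

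Lysosomal genes were higher throughout. All 19 of the lysosome list passed in this direction, 16 of them against each of the 3 other classes; the exceptions, Ctsl, Lamp2 and Cd63, did not pass against cells over the fibroblast limit. The aspartyl protease gene Ctsd stood at 10077 CPM in A and 12650.2 in B against 286 and 295 in all other cells (log2 fold change 5.71 ± 0.16 (SE), adjusted p = 1.20e-05). Ctsb stood at 5774 CPM in A and 7016 in B against 597 and 597. Grn, which encodes progranulin, stood at 1256 and 1536 CPM against 90.4 and 95.1. Among the genes for uptake of dying cells 10 of 13 tested were higher. The scavenger receptor genes Cd36, Msr1 and Stab1 stood at 369 and 477 CPM, 259 and 409.9 CPM and 239 and 253 CPM, each under 1 CPM in all other cells. Gas6, which encodes a bridging protein between dying cells and their receptors, was higher in macrophages (199 and 214 CPM against 21.8 and 18.4). Axl, a receptor for it, did not pass, at 64.8 and 43.7 CPM against 160.0 and 159.6 in the remaining cells (adjusted p = 0.0926 by edgeR), and was lower without the 28 cells that hold glial RNA (26.4 and 7.55 CPM, adjusted p = 3.32e-08).

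Genes of lipid-associated macrophages, a state described in injured nerve and in fatty tissue, were high. Of the list's 14 genes 11 were tested and 9 were higher. Apoe, the lipid carrier, stood at 24164 CPM in A and 22422 in B against 3773 and 3939 in all other cells, and the remaining cells themselves held 5615 and 5428 CPM. Gpnmb, a glycoprotein of lysosomes, stood at 2365 CPM in A and 2479.8 in B against 8.71 and 10.7 (log2 fold change 8.40 ± 0.14 (SE), adjusted p = 3.86e-06). Fabp5, a fatty acid carrier, stood at 6461 and 7032 CPM against 1129.8 and 1151, and Plin2, a coat protein of lipid droplets, at 1535 and 2024 CPM against 75.4 and 87.6. Spp1, which encodes osteopontin, stood at 9195 CPM in A and 12883 in B but was not particular to the macrophages: cells over the fibroblast limit held 23058 and 19391 CPM. Cd9 did not pass (635 and 622 CPM against 1093 and 1132, adjusted p = 0.0544 by edgeR). Cst7 had 0 UMIs, Itgax 2 and 6, and Clec7a was not analysed here. Of the microglia genes, Siglech and Sall1 had 0 UMIs and P2ry12 did not pass (27.4 and 9.21 CPM against 17.0 and 18.8, adjusted p = 0.571 by edgeR), whereas Gpr34 (29.9 and 53.0 CPM) and Fcrls (89.7 and 32.2 CPM) were higher than in each of the other classes.

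Part of the list of tissue-resident scavenger genes was present alongside. Of its 12 genes 8 were tested and 7 were higher. The mannose receptor gene Mrc1 stood at 127 CPM in A and 175 in B against 0.102 and 0.291 in all other cells (log2 fold change 10.00 ± 0.37 (SE), adjusted p = 2.78e-05). Folr2, a folate receptor, stood at 117 CPM in A and 221 in B, and F13a1, which encodes coagulation factor XIII, at 169 CPM in A and 221 in B. Cd163, Lyve1, Timd4, Clec10a and Cd209f, other markers of resident macrophages, had between 0 and 4 UMIs in either library. Igf1, a growth factor, stood at 249 and 394 CPM, beside 399 and 446 over the fibroblast limit.

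The share of cells in which a gene was found differed between genes. To compare cells of unequal depth, 2000 UMIs were drawn from each, which left out 4 macrophages and 172 remaining cells. A UMI of Tyrobp was found in 96.3% (77 of 80, interval 89.4 to 99.2) of macrophages, against 0.0432% of the remaining cells. Trem2 was found in 86.3% (69 of 80, interval 76.7 to 92.9), against 0.0324%. The shares in the remaining cells serve as background only, since the level of free RNA was not estimated. Gpnmb was found in 91.3% (73 of 80; interval 82.8 to 96.4) and Spp1 in 91.3% (73 of 80; interval 82.8 to 96.4), against 2.03% and 3.12%. Pf4 was found in 73.8% (59 of 80; interval 62.7 to 83.0), but Mrc1 in 23.8% (19 of 80; interval 14.9 to 34.6), Folr2 in 22.5% (18 of 80; interval 13.9 to 33.2) and Csf1r in 21.3% (17 of 80; interval 12.9 to 31.8), with each under 0.1% of the remaining cells. At full depth, with a median of 8507 UMIs, Mrc1 was found in 56 of 84 macrophages, Csf1r in 48 of 84 and Trem2 in 80 of 84. Genes at low levels are missed in most cells at 2000 UMIs, so these shares do not show that the cells differ in such genes.

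**Figure D3:**
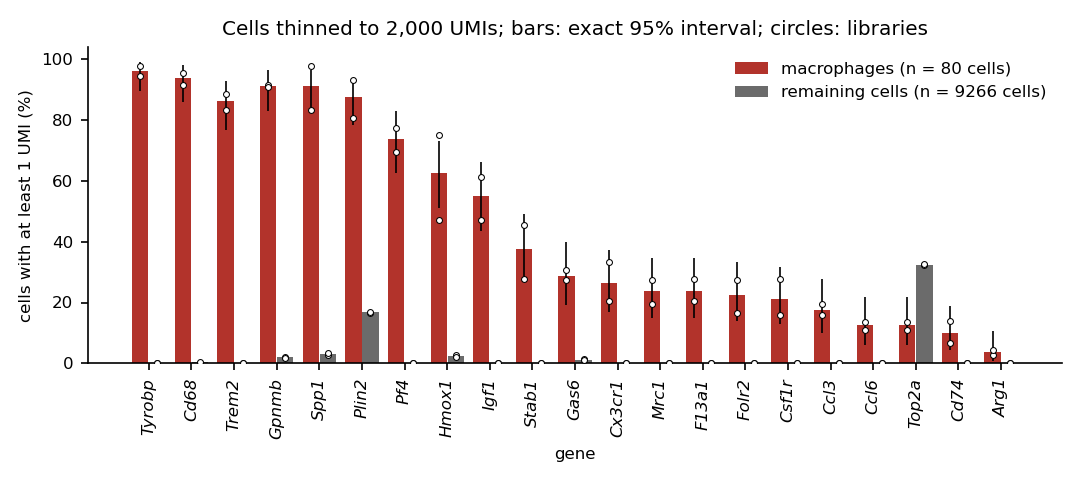
Bars give the percentage of cells with at least 1 UMI of each gene after drawing 2,000 UMIs per cell, for 80 macrophages (red) and 9266 remaining cells (grey); lines are exact 95% binomial intervals and circles the 2 libraries. Shares in macrophages stand at 96.3% for Tyrobp and 3.75% for Arg1, and Top2a was found in a larger share of the remaining cells (32.5%) than of the macrophages (12.5%).

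The amounts of lipid-associated genes varied widely among the macrophages. Spp1 ranged from 0 to 347 per 10000 in A (median 52.2) and from 0 to 457 in B (62.4), and 1 cell held 15.7% of its UMIs in A. Apoe was found in every macrophage, at 15.3 to 697 per 10000 (median 237), and at 30.5 or more in the 80 cells with at least 1000 genes. Gpnmb ranged from 0 to 101 (median 21.5) and Pf4 from 0 to 84.7 (6.90). Across cells the summed levels of the lysosome and the lipid-associated lists, which share no gene, went together, with a Spearman's rho of 0.69 over all 84 cells and 0.50 over the 56 with little glial RNA (0.67 in A, 0.41 in B). Without the 4 cells of fewer than 1000 genes it was 0.64 over 80 cells and 0.37 over 52 (0.56 in A, 0.29 in B). Both sums are scaled to the same cell's UMIs, and cells of a library share its depth and free RNA. Arg1, a gene of repair-linked macrophages, was confined to few cells: 3 of 38 in A and 4 of 46 in B held its 34 UMIs, and 1 cell held 17 of them.

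Most transcripts for antigen presentation and for inflammatory cytokines were scarce. Of 10 genes for MHC class II and costimulation 6 were tested and 5 were higher, most at low levels. Among them Cd86 entered the test through the macrophages alone. Cd86, which costimulates T cells, stood at 49.8 CPM in A and 48.4 in B against 0 and 0.0264 in all other cells and lay in 35 of 84 macrophages, 17 in A and 18 in B. Cd74, the invariant chain, stood at 107 CPM in A and 20.7 in B, and 1 cell held 22 of the 43 UMIs in A. H2-Aa had 3 UMIs in A and 0 in B, H2-Ab1 8 and 3, and Ciita, which switches these genes on, had 0. Of 11 inflammatory genes 4 were tested, with Il1a entering through the macrophages alone. Il1a was higher (a mean of 19.0 CPM ± 5.71 SD, n = 2, against 0.0396; it was not tested without the 28 cells for its low counts), while Il1b, Il6, Il12b, Nos2 and Ptgs2 had 0 UMIs in the macrophages, which allows up to 3.59 CPM each. Tnf had 3 UMIs in A and 5 in B. Of 8 repair-linked genes 5 were tested and 4 were higher: Arg1 (27.4 and 53.0 CPM against 0.766 and 1.64), Pdgfb and Il4ra (44.9 and 36.8 CPM against 16.7 and 15.6), each also than in all 3 classes, and Tgfb1. Retnla and Il10 had 0 UMIs. Of 10 interferon-stimulated genes tested, Bst2 (429 and 421 CPM against 45.7 and 47.9) and Irf7 were higher and Ifitm3 was lower (282 and 221 CPM against 579.6 and 601).

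Chemokine genes were present at moderate levels, with 10 of 15 tested higher and Cxcl10 lower. Ccl3, which attracts monocytes, stood at 107 CPM in A and 147 in B against 0.0255 and 0.132 in all other cells, Ccl6 at 34.9 and 129 CPM and Ccl9 at 84.7 and 159 CPM. Ccl6 lay in 22 of 84 cells, and 1 cell in B held 39.3% of its UMIs there. Ccl2 was higher than in all other cells (209 and 191 CPM against 52.8 and 59.5) but stood equally high over the fibroblast limit (210.1 and 186). Cxcl10 stood at 17.4 and 4.61 CPM against 79.8 and 72.8 in the remaining cells. Of the receptors, Ccr1 (72.3 and 92.1 CPM) was higher, while Ccr2, the receptor of recruited monocytes, had 0 UMIs.

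Genes that make cholesterol were lower in the macrophages, and genes that export it were higher. Of 15 sterol synthesis genes 10 were lower, 0 were higher and 5 did not pass, with a median log2 fold change of -1.48. Hmgcs1, at the entry of the pathway, stood at 77.2 CPM in A and 50.7 in B against 259.9 and 246 in all other cells (log2 fold change -1.57 ± 0.19 (SE), adjusted p = 0.00338). Idi1 stood at 27.4 CPM in A and 4.61 in B against 121 and 120.0 (log2 fold change -2.53 ± 0.42 (SE), adjusted p = 0.0105). For 8 of the 15 genes the macrophages were lower than each of the other classes. The sum of the list moved with glial RNA: its median was 1.17 per 10000 in the 56 cells with little of it and 5.04 in the 28, and without those 28 the median log2 fold change was -2.54, with 11 of 15 lower. Abca1 and Abcg1, which pump cholesterol out of the cell, stood at 528 CPM in A and 520.4 in B and 89.7 CPM in A and 111 in B, against 127 and 135 and 9.57 and 8.53 in all other cells (log2 fold change 2.43 ± 0.11 (SE), adjusted p = 6.53e-05 for Abca1). Soat1, which esterifies cholesterol, and Fabp4 and Pltp, which carry lipids, were higher as well.

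Iron genes were higher in 5 of 6 tested. The ferritin genes Fth1 and Ftl1 stood at 39451 CPM in A and 46871 in B and 23341 CPM in A and 29143 in B, against 6192 and 6060.3 and 2612 and 2646 in all other cells. Hmox1, which breaks down haem, stood at 496 CPM in A and 797 in B against 17.2 and 17.8 (log2 fold change 5.62 ± 0.21 (SE), adjusted p = 2.85e-05), and Slc11a1, a metal transporter of phagosomes, at 117 and 106 CPM against 0.638 and 1.11. The iron exporter Slc40a1 did not pass (2.49 and 11.5 CPM) and Hamp had 0 UMIs.

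**Figure D4:**
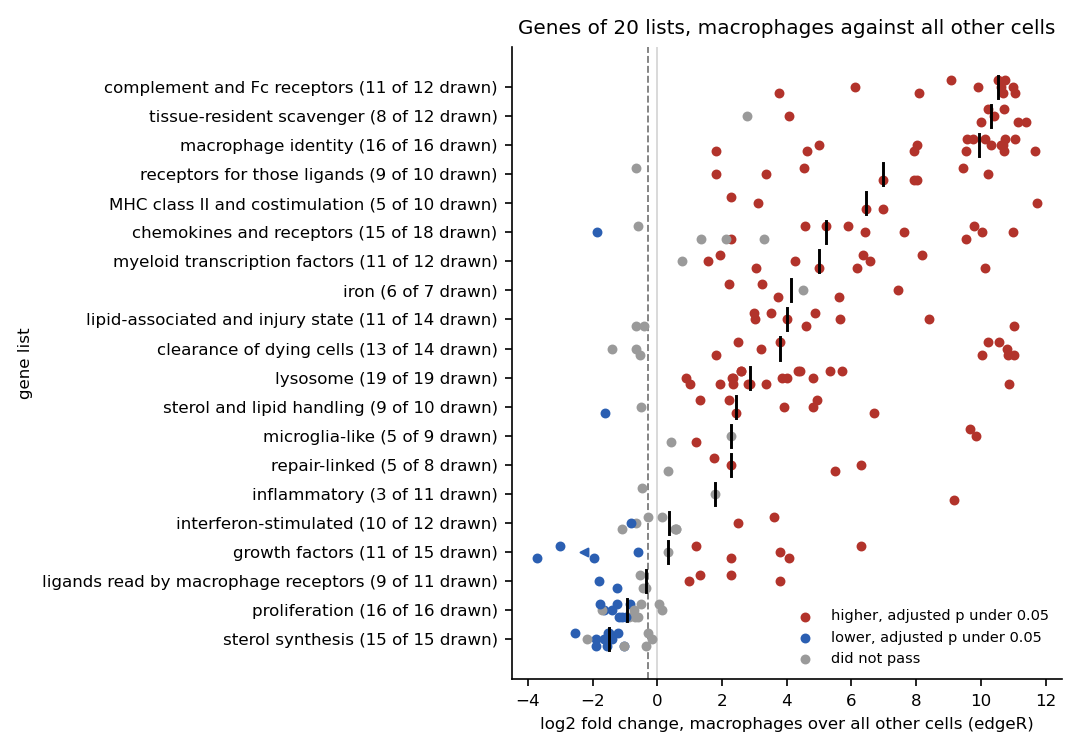
Each point is a gene of 1 of 20 lists; the x axis is the edgeR log2 fold change of macrophages over all other cells, colour gives the call at an adjusted p of 0.05, the black bar is the median of the points drawn and the dashed line the median of all tested genes at -0.30. The triangle is Nrg1, which has 0 UMIs in macrophages and is drawn at the bound set by 3 counts; untested genes, and genes at 0 in macrophages that lie below that floor in the other cells, are left out. Sterol synthesis has the lowest median, -1.48, and complement and Fc receptors the highest, 10.52.

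Over all 84 cells, cell cycle genes were lower in the macrophages than in the remaining cells, but higher than in cells over the neuronal limit. Of 16 proliferation genes 8 were lower than in all other cells, 0 were higher and 8 did not pass. Top2a, a topoisomerase of dividing cells, stood at 119.6 CPM in A and 115 in B against 718 and 699 in the remaining cells (log2 fold change -1.63 ± 0.15 (SE), adjusted p = 0.00104 against all other cells). Mki67, which encodes the Ki-67 antigen, stood at 137 CPM in A and 89.8 in B against 469.9 and 448. Without the 28 cells, Top2a stood at 6.60 and 26.4 CPM and Mki67 at 6.60 and 34.0, and 13 of 16 genes were lower (16.4% of all genes tested were called lower in that fit). The sum of the list reached 10 per 10000 in 2 of 56 macrophages with little glial RNA (3.57%, exact interval 0.435 to 12.3), 1 in each library. It reached that level in 11 of the 28 (39.3%, 21.5 to 59.4), 5 of 16 in A and 6 of 12 in B, and in 42.9% of the remaining cells. Over the neuronal limit 14.8% of cells reached it, and over the fibroblast limit 9.95%. These intervals pool the cells of both libraries and cover counting error only. Set against each class with all 84 cells, 14 of the 16 genes were lower in macrophages than in the remaining cells. Of all 13763 genes tested 3163 were lower there. By contrast, 15 of the 16 were higher than in cells over the neuronal limit, where Top2a stood at 33.2 and 39.0 CPM. Of all tested genes 2534 were higher than in that class. Against cells over the fibroblast limit 5 of the 16 were higher and 1 was lower, beside 1447 and 2253 of all tested genes. These class comparisons were not run without the 28 cells. Top2a in the 56 (6.60 and 26.4 CPM) lay below its level over the neuronal limit, and 2 of the 15 macrophages with a Top2a UMI were among them. Against the mean of the 3 classes at equal weight 1 of the 16 was lower, beside 2082 of 13763 genes tested. In that fit the log2 fold change of Mki67 turned to 0.36. The 28 cells held more glial RNA, more UMIs and more of these transcripts than the 56, and the part of glial RNA in the values over all 84 was not tested.

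**Figure D5:**
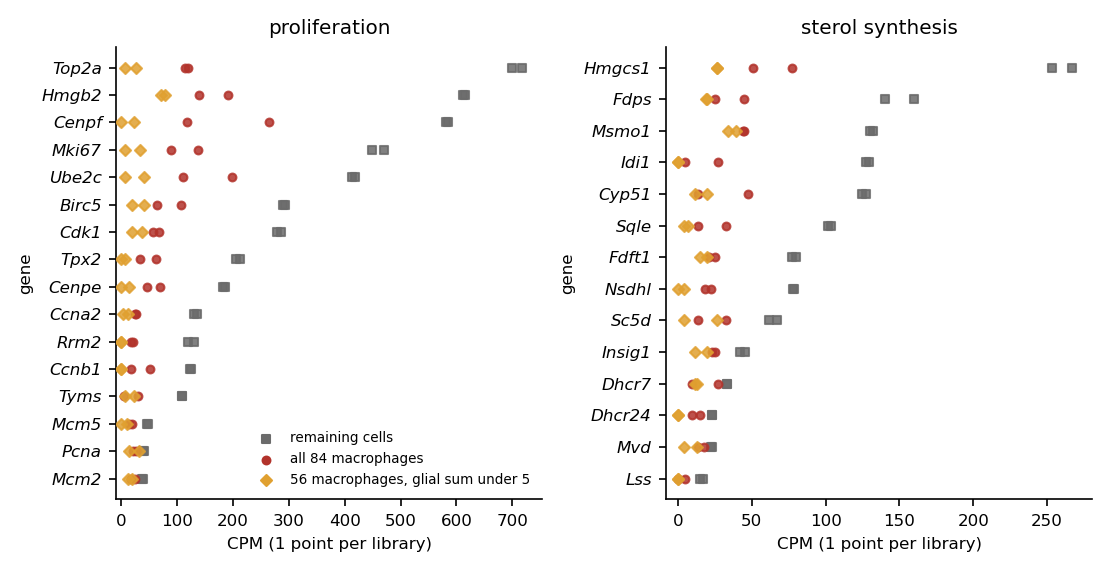
The x axis is the level in CPM of proliferation genes (left) and sterol synthesis genes (right), with 1 point per library, for the remaining cells (grey squares), all 84 macrophages (red circles) and the 56 macrophages with a glial sum under 5 per 10,000 (yellow diamonds). Top2a lies at 718 and 699 CPM in the remaining cells, 119.6 and 115 CPM in all macrophages and 6.60 and 26.4 in the 56, and the means of the other genes drawn lie in the same order.

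Ligands of macrophage receptors were highest in different classes. Il34 stood highest in the remaining cells, at 28.0 and 33.3 CPM, with a mean of 23.9 over the neuronal limit, 20.8 over the fibroblast limit and 7.48 and 4.61 CPM in macrophages, which were lower than in each of these classes. Csf1, the other ligand of the Csf1r protein, stood highest over the neuronal limit (65.2 and 64.8 CPM) and did not pass between macrophages and all other cells (24.9 and 6.91 CPM against 30.7 and 26.0, adjusted p = 0.526 by edgeR). Cd200, a surface protein that restrains macrophages, stood at 105 and 108 CPM in the remaining cells, and its receptor gene Cd200r1 at 32.4 and 69.1 CPM in macrophages against 0 and 0.106 in all other cells. Cd47, the signal that its receptor Sirpa reads to prevent engulfment, was present in every class, with 292 and 233 CPM in macrophages and 235 and 247 over the neuronal limit, while Sirpa was higher in macrophages (282 and 332 CPM against 17.8 and 17.5). The receptors of GM-CSF, Csf2ra and Csf2rb, were higher in macrophages, and Csf2 itself had 0 UMIs in every class. Of the 10 receptor genes 9 were tested and 8 were higher, each of them than in all 3 classes.

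Among growth factor genes 14 of 15 were tested, of which 5 were higher and 5 lower. Pdgfb (24.9 and 34.5 CPM against 0.434 and 0.581), Gas6 and Vegfb (82.2 and 82.9 CPM against 50.1 and 46.3) were higher than in each of the other classes. Igf1 and Tgfb1 were higher than in all other cells together, but cells over the fibroblast limit held 399 and 446 and 196 and 181 CPM. The neurotrophin gene Bdnf, with 156 and 137 CPM over the neuronal limit, had 0 UMIs in A and 2 in B among the macrophages. Nrg1 had 0 and, taking 3 counts over both libraries as the floor, was at least 6.45-fold lower than in all other cells in CPM, with a bound of -2.26 on the log2 scale with TMM. Hbegf, which encodes a ligand of the EGF receptor, stood at 17.4 and 18.4 CPM against 136 and 132 in the remaining cells.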

How the data were processed

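Cultured DRG cells of 2 libraries, A and B, were measured as single-cell transcriptomes. The values the authors deposited are raw counts of UMIs by gene and cell barcode. Their methods and processing notes name Cell Ranger 3.0.2 and Seurat 3, the matrix headers software version 3.1.0, and the reference mm10. Deposited barcodes and gene names were used as given. Cells were selected by the limits stated in the report, after 108 barcodes in A and 105 in B over the mitochondrial limit and 1 and 4 under the gene limit were left out. The members and gene lists were chosen with earlier results of these data known.

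Counts were summed per class and library and fitted with edgeR 4.0.16 (filterByExpr, TMM, quasi-likelihood test, library as block, 4 sums, 1 residual degree of freedom) in R 4.3.3. The step was tested on simulated data. An SE is the log2 fold change over the square root of the F value. A gene passed at an adjusted p of 0.05. The macrophage counts of A and B differed by more than sampling noise (chi-square of 1.68 per degree of freedom over 7345 genes), with a Spearman's rho of 0.905 over 7514 genes. Named genes are members of the lists and up to 10 genes with the largest fold in each direction among those past the threshold that had the same sign in A and B and at least 20 CPM where higher. Alternatives were DESeq2 1.42.0, other scalings, no filter on low counts, no replicate block, other selection limits, 4 classes, other thinning depths and each library alone. A limit of 5 per 10000 on glial markers was added after seeing the data. Some members of the lists, which enter the counts and sums, are not reported here by name. Cell_SNI and Cell_crush were not analysed here.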

Additional observations from a re-analysis of the deposited data

How the results depend on the processing

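The share of macrophages moved to 3.13% with a mitochondrial limit of 5%, which leaves 2047 cells, to 0.736% without macrophages at 0.5 times the remaining cells' glial median or more, and to 0.522% without the 28 cells with glial RNA. It was 0.750% and 0.812% in each library alone. With the 5% limit 64 macrophages remained. The median mitochondrial share was 4.34% in macrophages and 6.04% in the remaining cells. It was 5.58% over the neuronal limit and 3.72% over the fibroblast limit. Genes called lower numbered 783 with DESeq2, 3463 with library totals, 2082 with 4 classes of equal weight and 2298 without the 28 cells, in which 1236 of the 1336 remained. DESeq2 called 1184 genes higher, so 60.2% of its calls were higher, against 50.7% with edgeR, 23.2% with library totals and 36.3% without the 28 cells. Proliferation genes called lower numbered 14 with library totals, 1 with 4 classes, 13 with the 5% limit and 13 without the 28 cells. Without those cells, genes called lower rose from 0 to 2 in both the lipid-associated list and the list for uptake of dying cells. They rose from 1 to 2 among interferon-stimulated genes and from 2 to 4 among ligands of macrophage receptors. Chemokine genes called higher rose from 10 to 11. With 4 classes of equal weight the log2 fold change turned positive, to 0.36 for Mki67, 0.12 for Cdk1, 0.22 for Birc5, 0.16 for Hmgb2, 0.0276 for Sox10, 0.38 for Erbb3, 0.0422 for Fabp7, 0.15 for Cnp and 0.63 for Foxd3. The remaining cells, 9438 of the 10646 other cells, weigh less in that fit. The glial markers summed to 5920 and 5843 CPM in them, 622 and 654 over the neuronal limit and 456 and 515 over the fibroblast limit. In macrophages they summed to 1577 and 896. Without the replicate block 1735 genes were higher and 1738 lower. The pairing follows from the design, since each library holds both classes. Apart from which cells a limit removes and how the classes are weighted, the cause of these changes was not tested. A library left on its own gives values without a test. The 835608 UMIs of the macrophages limit what can be said of genes under about 3.59 CPM.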

Other observations

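Several abundant genes outside the lists were higher in the macrophages; they were picked by level after their values were seen, among genes with a log2 fold change of at least 2, and all were higher than in each of the 3 other classes. Cstb, which encodes an inhibitor of cysteine cathepsins, stood at 2310.0 CPM in A and 2956 in B against 344 and 346 in all other cells. Cyba, a subunit of the NADPH oxidase of phagocytes, stood at 2322 and 2696 CPM against 96.6 and 111. Mpeg1, a pore-forming protein of macrophages, stood at 329 and 359 CPM against 0.0766 and 0.370. Hal, the histidine-degrading enzyme histidase, best known from liver and skin, stood at 381 and 435 CPM against 0.408 and 0.766. Selenop, which encodes a secreted selenium carrier, stood at 648 and 684 CPM against 169 and 175. The same genes lay at 2833 and 3309 CPM (Cstb) and 357 and 460.3 (Hal) without the 28 cells that hold glial RNA.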
